A study of Mus musculus with 2 samples.

Results

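Chemokine ligands and receptors were followed across the cells of an injured tibia, as senders and receivers of recruitment signals. The genes were Cxcl5, Cxcl12 and Cxcl16 (ligands), Cxcr2, Cxcr4, Ccr1, Ccr2 and Cx3cr1 (signalling receptors) and Ackr3 (an atypical receptor), 9 of the 32285 genes counted, taken by symbol from a list drawn up with earlier results of these data known. Single-nucleus RNAseq was done on 2 libraries of C57BL6 mice, day 1 post-fracture and day 5 post-MTI. MTI, for musculoskeletal traumatic injury, combines the tibial fracture with mechanical injury of the adjacent muscles and does not heal like a fracture alone. Each library held nuclei of activated periosteum with the hematoma or callus, pooled from 3 or 4 mice 10 to 14 weeks old, males and females mixed, and sorted on a nuclear dye. There was 1 library per condition and the mice of a pool could not be told apart, so nothing below is a test between animals, no p-value is given, and the libraries, which differ in day and injury together, were not compared with each other.

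Chemokines are small secreted proteins that guide cells carrying matching G protein-coupled receptors. CXCL5 acts on CXCR2, the receptor by which neutrophils enter damaged tissue. CXCL12 holds hematopoietic and progenitor cells through CXCR4, and ACKR3 binds the same ligand without classical G protein signalling and clears it. CXCL16 is made as a membrane-bound protein and released by ADAM10, and its receptor is CXCR6. CCR2 brings monocytes from the blood along CCL2, CCL7 and CCL12, CCR1 binds several CC chemokines on myeloid cells, and CX3CR1, the fractalkine receptor, is carried by monocytes and many resident macrophages. In fracture repair, skeletal stem/progenitor cells (SSPCs) and their fibrogenic progeny are known sources of such signals.

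In the MTI library 1127 nuclei were retained, with 4337337 UMIs (unique molecular identifiers, 1 per captured transcript) and a median of 2364 UMIs per nucleus. At day 1 there were 2405 retained nuclei with a median of 409 UMIs, and 43464 barcodes with fewer than 200 genes held 72.9% of the library's UMIs. The libraries shared 33 barcodes, 15 of them among retained nuclei. The MTI nuclei formed 16 populations, clustered without the measured genes and without the rest of the chemokine family. The stromal class (177 nuclei) consisted of 104 chondrocyte-like nuclei led by Lipi, Matn3 and Col9a1 and 73 SSPC-like nuclei led by Pgr and Pi15. The immune class (476 nuclei) consisted of 87 neutrophil-like and 70 monocyte-like nuclei, 3 macrophage-like groups led by Ptgr1 and Hmox1 (95 nuclei), Dnase1l3 and Cd4 (74) and Ccl8, Cd163 and Mrc1 (69), 34 nuclei led by Mmp12 and Gpnmb that took no list name, and 47 nuclei with markers of several lymphoid and dendritic lists. Names came from the fold of each marker list over the other nuclei, and the levels of the lists did not always follow them. In chondrocyte-like and SSPC-like nuclei the stromal list stood at 14708 and 11506 CPM (a gene's UMIs in a group scaled to a common total) against 236.5 and 205.3 CPM for the immune list. The chondrocyte-like nuclei had the chondrocyte list at 2094 CPM and the osteoblast list at 2293 CPM. They also had the pericyte and smooth muscle list at 560 CPM (3.21-fold). At a finer clustering resolution of 2.0, a cluster of 67 nuclei took the pericyte and smooth muscle name. The stromal class then had 126 nuclei in place of 177. The stromal class may thus hold such nuclei. Which nuclei formed that cluster was not traced, and their part in the stromal levels was not tested. The SSPC-like nuclei had the SSPC list at 528 CPM, below the chondrocyte list at 631 CPM and the osteoblast list at 763 CPM. The SSPC list stood higher, at 657 CPM, in the group with lymphoid and dendritic markers, so it does not single out the SSPC-like nuclei. In monocyte-like nuclei the monocyte list stood at 1877 CPM and the macrophage list at 5328 CPM, with the monocyte markers Ly6c2 and Ace at 0. The macrophage list stood at 4245 CPM in Hmox1-led, 4516 in Dnase1l3-led and 6664 in Ccl8-led macrophages, and at 3940 CPM in Mmp12-led nuclei. Below, macrophage-like nuclei are the 3 named groups alone. Contrasts of monocyte-like with macrophage-like nuclei thus set groups against each other that all carried the macrophage list. The other populations were endothelial-like (36 nuclei), osteoclast-like (30), erythroid-like (32) and myogenic-like (100), and 3 clusters without a name, led by Elf5 (177), by Hspa1a and Cd74 (73) and by Pax7 and Chodl (26). The erythroid-like nuclei also carried the macrophage list, at 2844 CPM beside 717 CPM for the erythroid list. The Hspa1a- and Cd74-led cluster, though unnamed and outside the immune class, had the immune list at 5386 CPM. In it the macrophage list stood at 2206 CPM and the stromal list at 1015 CPM.

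The genes fell on both sides of the stromal and immune divide. Cxcl5, Cxcl12 and Ackr3 were at least 2-fold higher in stromal-like than in immune-like nuclei, a direction taken by 24.8% of the 12573 genes with at least 10 UMIs in both classes together. Cxcl16, Cxcr2, Cxcr4, Ccr1, Ccr2 and Cx3cr1 were at least 2-fold higher in immune-like nuclei, a direction taken by 21.2% of all genes. Taking either direction, 9 of 9 genes were past the fold against 46.0% of all genes. The median log2 ratio of stromal over immune was -3.16 for the 9 genes and 0.03 for all genes. All intervals given are 95% intervals of counting error alone. They treat UMIs as independent, which UMIs of 1 nucleus are not, and are too narrow where a single nucleus held many of a gene's UMIs.

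**Figure D1:**
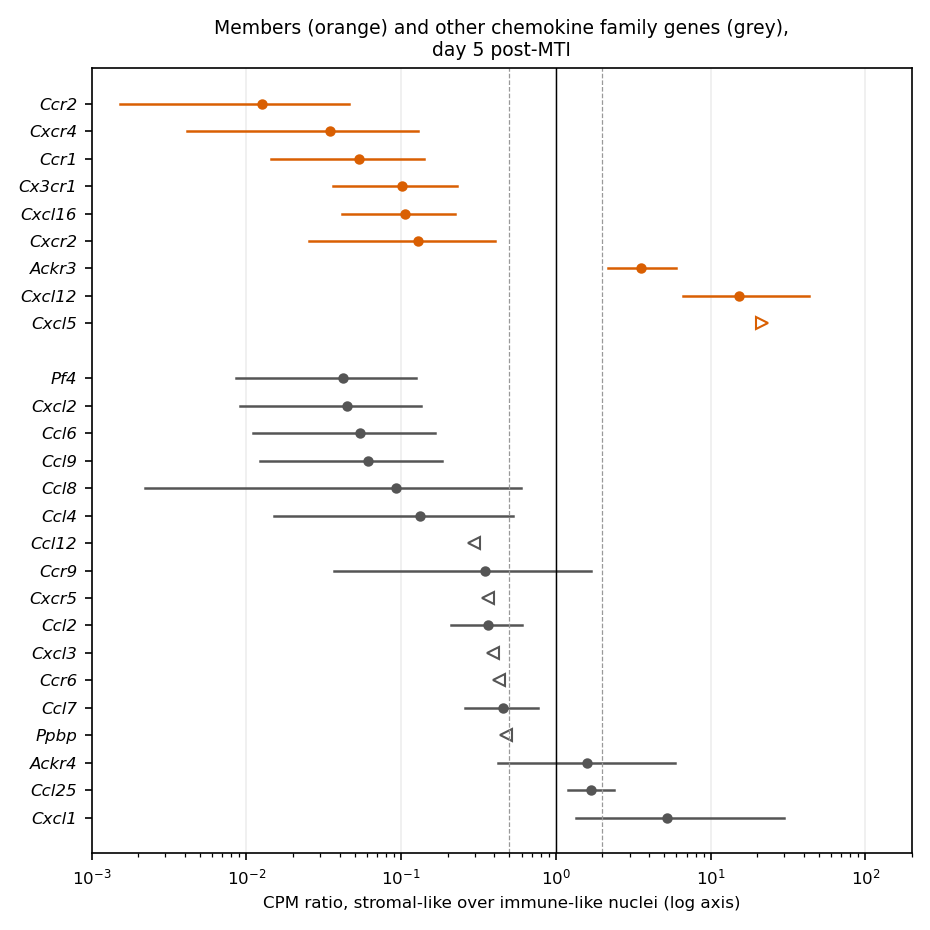
Ratio of CPM in stromal-like over immune-like nuclei of the day 5 post-MTI library (log axis) for the 9 genes (orange) and other chemokine family genes with at least 10 UMIs (grey). Dots are ratios with exact 95% intervals, open triangles are bounds where a class held 0 UMIs, and dashed lines mark a fold of 2. Ccr2 lies farthest to the immune side at 0.0126. Cxcl5 lies farthest to the stromal side at 21.5, a value set by a floor count in place of its 0 immune-like UMIs. The exact lower limit for Cxcl5 is 16.7.

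Cxcl5, the neutrophil-attracting ligand (chr5:90759360-90761624, plus strand, mm10), was the most restricted ligand. Its 45 UMIs included 36 in chondrocyte-like nuclei, 5 in SSPC-like nuclei, 3 in the Elf5-led cluster and 1 in the Pax7-led cluster. The 7 immune groups and the endothelial-like, osteoclast-like, erythroid-like and myogenic-like nuclei held 0. The level was 39.9 CPM (28.6 to 54.1) in the stromal class. With the 0 UMIs of the immune class set to 3, this was 21.5-fold higher, and the exact lower limit was 16.7-fold. The chondrocyte-like (40.3 CPM) and SSPC-like (36.7 CPM) groups did not differ beyond counting error, with a ratio of 1.10 (0.43 to 3.59). Few nuclei carried it. The 36 UMIs of the chondrocyte-like group lay in 6 of 104 nuclei, 14 of them in a single nucleus, without which the group stood at 25.1 CPM. In the neutrophil-like group the 0 UMIs have an exact upper limit of 50.9 CPM. A level equal to the stromal one could therefore not have been detected as lower at this depth.

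Cxcl12, the CXCR4 and ACKR3 ligand (chr6:117168535-117181367, plus strand), was spread over stromal and vascular nuclei. Its 89 UMIs were 49 in chondrocyte-like, 9 in SSPC-like and 20 in endothelial-like nuclei, with 6 in all immune groups together. The level was 56.4 CPM (42.8 to 72.9) in stromal-like and 3.70 CPM (1.36 to 8.05) in immune-like nuclei, a ratio of 15.2 (6.59 to 43.2). Endothelial-like nuclei came first in the order at 110.5 CPM (67.5 to 171), followed by the SSPC-like group at 66.0 and the chondrocyte-like group at 54.9, and neighbours in this order did not differ beyond counting error. The first place rested on 1 nucleus that held 12 of the 20 endothelial UMIs. Without it the endothelial level was 46.3 CPM, below both stromal groups. In contrast, 29 of 104 chondrocyte-like nuclei had at least 1 Cxcl12 UMI, and no stromal nucleus held more than 5.

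Cxcl16, the membrane-bound ligand (chr11:70453983-70459984, minus strand), did not follow the other ligands and was highest in macrophage-like nuclei. Its 133 UMIs included 92 in the 3 macrophage-like groups and 7 in the stromal class, and its immune level of 64.7 CPM was 9.51-fold above the stromal level of 6.81 (4.46 to 24.2). The Dnase1l3- and Cd4-led macrophages stood highest at 178 CPM (135 to 231), with 57 UMIs in 34 of 74 nuclei. The unnamed Hspa1a- and Cd74-led cluster came second at 81.2 CPM from 6 UMIs and did not differ from them beyond counting error (ratio 2.19, 0.948 to 6.23). The leading level was 2.84-fold above the Hmox1-led macrophages at 62.7 CPM (1.76 to 4.71), 5.68-fold above the Ccl8- and Mrc1-led macrophages at 31.4 CPM (2.79 to 13.0) and 10.1-fold above monocyte-like nuclei at 17.6 CPM (3.75 to 38.4). Neutrophil-like nuclei held 0 UMIs. The annotated span of Cxcl16 overlaps Zmynd15 on the opposite strand. Whether the counting used strand was not given in the sources used here, so whether reads of the pair were kept apart was not known. Zmynd15 itself had 20 UMIs in the Dnase1l3-led macrophages. The receptor Cxcr6 had 1 UMI among all retained MTI nuclei.

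**Figure D2:**
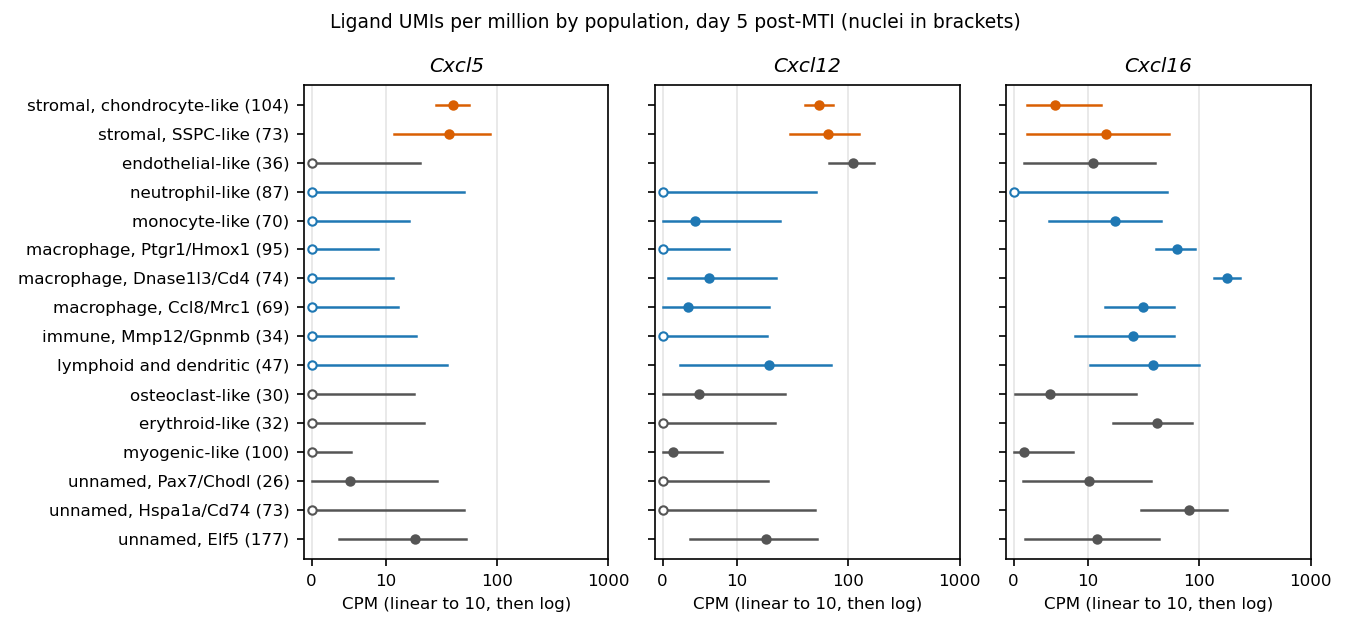
CPM of Cxcl5, Cxcl12 and Cxcl16 in the 16 populations of the day 5 post-MTI library (axis linear to 10, then log), with exact 95% counting intervals and the number of nuclei in brackets. Orange marks stromal, blue immune and grey other populations, and open circles hold 0 UMIs. Cxcl5 is highest in the stromal populations, at 36.7 and 40.3 CPM, with 0 UMIs in endothelial-like nuclei. Cxcl12 is highest in stromal and endothelial-like nuclei, at 54.9 to 110.5 CPM, the endothelial level being 46.3 CPM without 1 nucleus. Cxcl16 peaks in the Dnase1l3-led macrophages at 178 CPM.

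Among the receptors, Cxcr2 (chr1:74153989-74161246, plus strand), which binds Cxcl5, was concentrated in neutrophil-like nuclei. These held 29 of its 50 UMIs, at 400.1 CPM (268 to 575), in 22 of 87 nuclei with at most 2 UMIs each. The Elf5-led cluster, of low depth, came next with 7 UMIs at 42.3 CPM, and the ratio between them was 9.46 (4.06 to 25.6). The neutrophil marker list stood at 9589 CPM in the neutrophil-like group and at 1214 CPM in the Elf5-led cluster, and its part in the Cxcr2 level there was not tested. Macrophage-like nuclei held 3 UMIs in all (2.94 CPM), a level 136-fold lower (42.2 to 699), and stromal-like nuclei also 3. Thinned to 500 UMIs per nucleus, 16 of 87 neutrophil-like nuclei (18.4%, exact interval 10.9 to 28.1) had a Cxcr2 UMI, against 0.962% of chondrocyte-like nuclei. Erythroid-like nuclei had 0 of 32, with an exact upper limit of 10.9%. Before thinning, at median depths of 757 and 7980 UMIs, the shares were 25.3% and 1.92%.

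Cxcr4, the signalling receptor of CXCL12 (chr1:128588199-128592293, minus strand), was highest in macrophage-like and Mmp12-led nuclei. Of its 110 UMIs, 65 were in macrophage-like, 17 in Mmp12-led and 2 in stromal-like nuclei, and the immune level of 56.1 CPM was 28.9-fold above the stromal level of 1.94 (7.76 to 242). The Dnase1l3-led macrophages again stood first at 119 CPM (84.0 to 163), with a UMI in 27 of 74 nuclei, and the Mmp12-led nuclei second at 86.4 CPM (50.4 to 138), with a UMI in 14 of 34. These did not differ beyond counting error (ratio 1.37, 0.76 to 2.60). The level in Dnase1l3-led macrophages was 2.90-fold that of Hmox1-led (1.60 to 5.48), 3.41-fold that of Ccl8-led macrophages (1.67 to 7.67), where 1 nucleus held 4 of 10 UMIs, and 9.0-fold that of monocyte-like nuclei (2.86 to 45.6). The Hspa1a-led cluster (54.1 CPM, 4 UMIs) and neutrophil-like nuclei (41.4 CPM, 3 UMIs) did not differ from the leading group beyond counting error. Outside the immune class, the Pax7-led cluster, whose leading genes mark satellite cells, held 7 UMIs in 5 of 26 nuclei at 36.0 CPM (14.5 to 74.1), and without its top nucleus stood at 21.6 CPM. Endothelial-like, osteoclast-like and myogenic-like nuclei held 0.

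Ackr3, the atypical CXCL12 receptor (chr1:90203980-90216751, plus strand), was found on the stromal side and not with Cxcr4. Its 99 UMIs included 54 in the stromal class and 24 in the immune class, at 52.5 CPM (39.4 to 68.5) and 14.8 CPM (9.48 to 22), a ratio of 3.55 (2.16 to 6.0). Within the stromal class the SSPC-like group stood at 161 CPM (101 to 244), 4.50-fold above the chondrocyte-like group at 35.9 CPM (2.49 to 7.99). In the SSPC-like group 7 of 73 nuclei carried the UMIs and 1 nucleus held 9 of the 22. Without that nucleus the level was 102 CPM, still the highest of the 16 populations. Monocyte-like nuclei came second at 61.5 CPM (33.6 to 103), with 14 UMIs in 9 of 70 nuclei, against 9.79 CPM in the macrophage-like nuclei as 1 group. There 1 nucleus held 6 of the 10 UMIs, and without it the level was 3.94 CPM. The Pax7-led cluster (41.1 CPM) and endothelial-like nuclei (38.7 CPM, and 17.6 CPM without the nucleus that held 4 of 7 UMIs) were within counting error of the chondrocyte-like group. Neutrophil-like nuclei held 0.

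Ccr1 (chr9:123962124-123968692, minus strand), a receptor for several CC chemokines, was highest in neutrophil-like, monocyte-like and osteoclast-like nuclei. Neutrophil-like nuclei had the highest level, 331 CPM (212 to 493) from 24 UMIs in 18 nuclei. Monocyte-like nuclei followed at 167 CPM (118 to 229), lower than neutrophil-like nuclei by a ratio of 1.98 (1.14 to 3.39) and above macrophage-like nuclei by 3.35 (2.14 to 5.20). Osteoclast-like nuclei came next at 112 CPM (71.1 to 168), with 23 UMIs, 11 of them in 1 of 30 nuclei. Without that nucleus the level was 63.1 CPM. The Hmox1-led macrophages had 77.1 CPM and the Dnase1l3-led macrophages 18.8 CPM, a ratio of 4.11 (1.7 to 12.0), which is the reverse of the order seen for Cxcl16 and Cxcr4. Stromal-like nuclei held 4 UMIs (3.89 CPM) against 118 in the immune class (72.8 CPM). After thinning, 13.8% of neutrophil-like nuclei had a UMI (20.7% before), against 3.13% of erythroid-like nuclei. Chondrocyte-like nuclei had 0 of 104, with an exact upper limit of 3.48%.

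Ccr2 (chr9:124101950-124113557, plus strand), the monocyte recruitment receptor, had the widest measured gap between the classes. It was left out of the clustering and of the marker lists, yet ranked among the 10 leading genes of the monocyte-like group. The immune class held 250 UMIs at 154 CPM (136 to 174) and the stromal class 2 UMIs at 1.94 CPM, a 79.3-fold difference (21.7 to 658). Monocyte-like nuclei alone held 122 of the 291 UMIs of the library's retained nuclei, at 536 CPM (445 to 640), and 32 of these 70 nuclei had at least 1. Their level was 5.65-fold that of macrophage-like nuclei (4.29 to 7.45), though the monocyte-like nuclei carried the macrophage list as well. The lymphoid and dendritic group stood at 280 CPM (188 to 403), with 12 of its 29 UMIs in 1 nucleus, without which it was at 170 CPM. The Hspa1a- and Cd74-led cluster stood at 203 CPM (114 to 335), with 15 UMIs in 9 of 73 nuclei, and the order of these groups was within counting error (ratio 1.38, 0.717 to 2.77). The Ccl8-led macrophages stood at 118.5 CPM (82.1 to 166), the Dnase1l3-led at 106 CPM (73.6 to 148) and the Hmox1-led at 69.9 CPM (46.8 to 100). All were below the monocyte-like nuclei. The intervals of the Ccl8-led and Dnase1l3-led levels overlapped that of the Hspa1a- and Cd74-led cluster. The Hmox1-led level was 48.9 CPM without the nucleus that held 9 of 29 UMIs, and the Dnase1l3-led level was 54.0 CPM without the nucleus that held 17 of 34 UMIs. The Mmp12-led nuclei held 0 UMIs, and with these set to 3 the Ccl8-led macrophages were 7.77-fold higher. Neutrophil-like nuclei held 2 UMIs, and endothelial-like, osteoclast-like and myogenic-like nuclei 0.

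After thinning, 15 of 70 monocyte-like nuclei (21.4%, 12.5 to 32.9) had a Ccr2 UMI and 45.7% before thinning, at a median depth of 2652 UMIs. Chondrocyte-like nuclei had 0 of 104 after thinning. The 3 macrophage-like groups had 4.05% to 5.80%. Erythroid-like nuclei had 2 of 32 after thinning (6.25%) and 20 UMIs in all (120 CPM), of which 14 lay in 1 nucleus. Without it they stood at 37.0 CPM. These nuclei also carried the macrophage list, as given above, so their shares are not a clean background for any of the myeloid receptors, and the part of those markers in the level was not tested.

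Cx3cr1, the fractalkine receptor, was the least certain of the genes. Its annotated span (chr9:119901616-120069879, minus strand) covers 168264 bases in the GENCODE annotation and overlaps 9 other genes in the files, 3 of them on the same strand (Gorasp1, Csrnp1 and Xirp1), so some reads may be shared or assigned between them. The immune class held 93 UMIs at 57.3 CPM (46.3 to 70.2) and the stromal class 6 at 5.83 CPM, a 9.83-fold difference (4.35 to 27.5). The Dnase1l3-led macrophages stood first at 119 CPM (84.0 to 163), with a UMI in 20 of 74 nuclei, 2.24-fold above Hmox1-led (1.29 to 3.98), 2.13-fold above Ccl8-led macrophages (1.16 to 4.09) and 5.40-fold above monocyte-like nuclei (2.12 to 17.6). In these macrophages Xirp1 had 0 UMIs. In the Ccl8-led macrophages 1 nucleus held 7 of 16 UMIs, and without it their level was 32.1 CPM in place of 55.8. Neutrophil-like nuclei and the Hspa1a-led and Elf5-led clusters stood at 60.4 to 69.0 CPM from 5 to 10 UMIs each. Erythroid-like nuclei had 108 CPM (63.7 to 170), and 68.8 CPM without the nucleus that held 7 of 18 UMIs, within counting error of the leading group, and 0 of 32 after thinning. Myogenic-like nuclei had 16 UMIs (22.9 CPM) in 6 of 100 nuclei, 11 of them in 1, and 7.38 CPM without it. Xirp1, a muscle gene, had 17 UMIs in 11 of those 100 nuclei, none of which had Cx3cr1. The ligand Cx3cl1 had 6 UMIs among all retained nuclei, 4 of them chondrocyte-like.

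**Figure D3:**
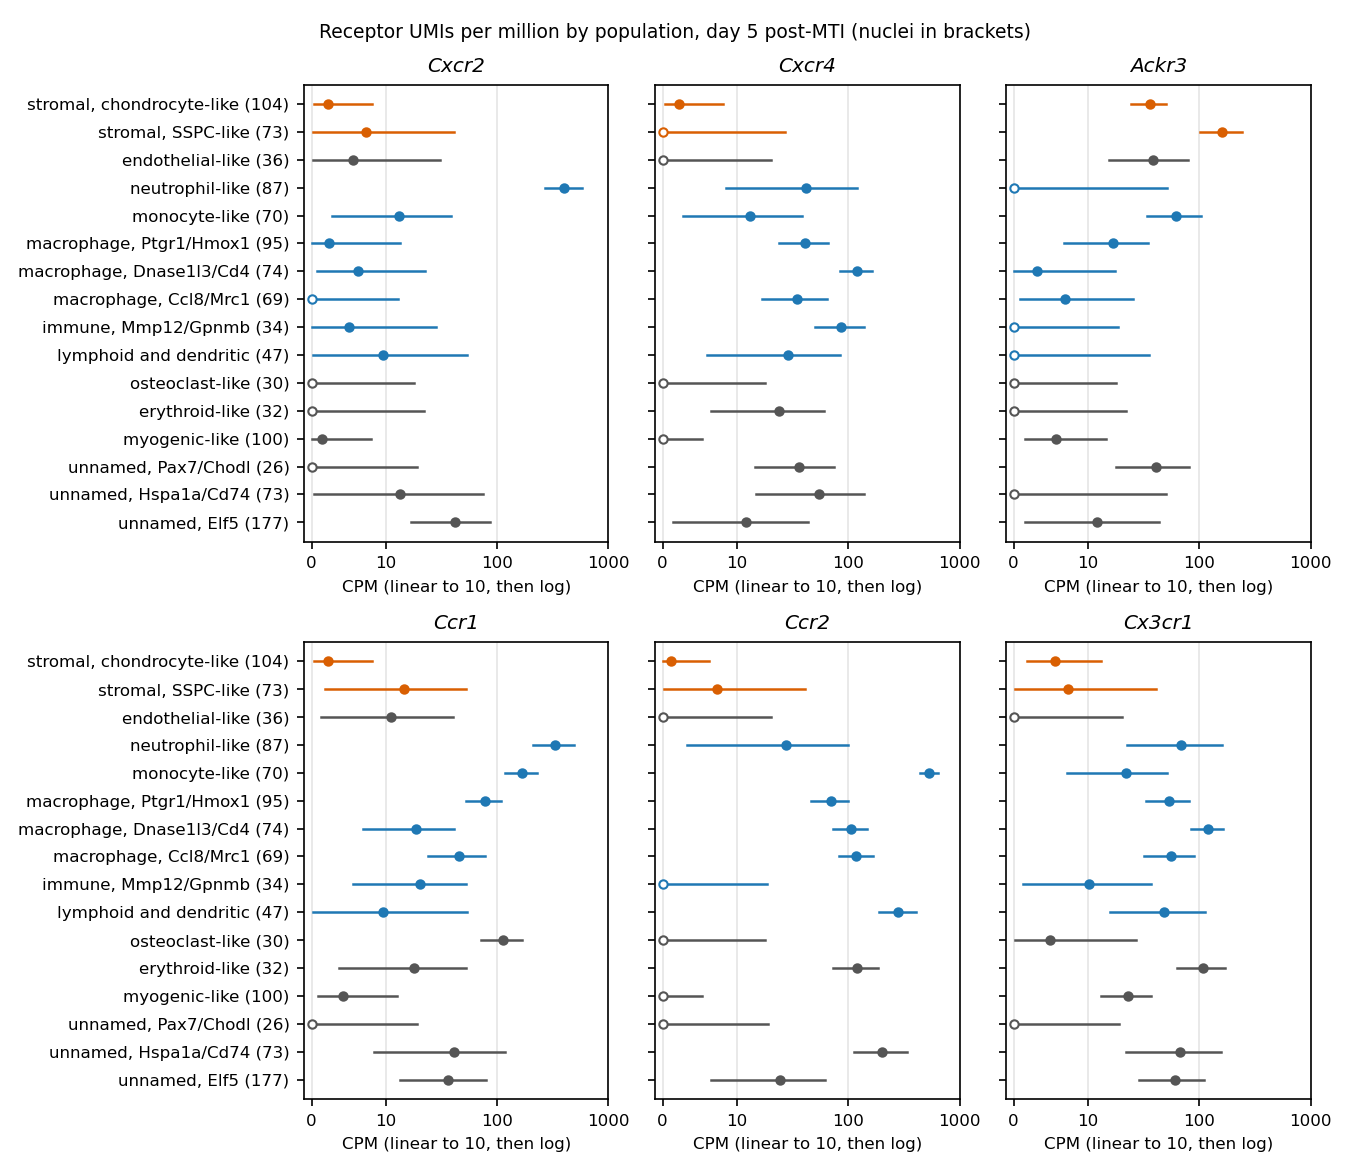
CPM of the 6 receptors in the 16 populations of the day 5 post-MTI library (axis linear to 10, then log), with exact 95% counting intervals and the number of nuclei in brackets, coloured as for the ligands. Cxcr2 peaks in neutrophil-like nuclei (400.1 CPM), Ccr2 in monocyte-like nuclei (536 CPM), Cxcr4 and Cx3cr1 in the Dnase1l3-led macrophages (119 CPM each) and Ackr3 in SSPC-like nuclei (161 CPM).

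Read as pairs, Cxcl5 was highest in stromal-like and Cxcr2 in neutrophil-like nuclei, and Cxcl12 was highest in endothelial-like and stromal-like nuclei and Cxcr4 in macrophage-like nuclei. Cxcl5 was found in 13 nuclei and Cxcr2 in 42, with 0 shared. Cxcl12 was found in 50 nuclei and Cxcr4 in 82, with 2 shared (4.0% and 2.44%). These shared counts and those that follow are small and are given as descriptions only. No number expected for unrelated genes is given beside them, so nothing is read from them about pairing. Cxcl12 and its other receptor Ackr3 were both high in stromal-like nuclei and were found together in 8 nuclei (16.0% of those with Cxcl12 and 18.2% of those with Ackr3), and their levels over the 16 populations had r = 0.59, whereas Cxcl12 and Cxcr4 had r = -0.61. Cxcl16 and Cxcr4 were found together in 21 nuclei (22.8% and 25.6%), with r = 0.68 over the populations. Cxcl16 and Cxcr4 are not ligand and receptor, nor are Cxcl5 and Ackr3 (r = 0.62) or Cxcl5 and Cxcl12 (r = 0.61). Values of this size are thus not particular to ligands and their receptors. These correlations describe 16 populations of 1 library that differ in depth, and detection of a pair in 1 nucleus grows with its depth.

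Most of the other chemokine family genes with enough UMIs were higher in the immune class. Of the 51 other family genes in the files, 18 had at least 10 UMIs in both classes together. Of these, 15 were at least 2-fold higher in immune-like nuclei, against 21.2% of all genes. In stromal-like nuclei 1 was higher (Cxcl1), against 24.8% of all genes, and 2 were in neither (Ccl25 and Ackr4). The median log2 ratio was -3.78. Some of the 15, among them Cxcl3, Ppbp and Ccl12, had 0 stromal UMIs and so passed the minimum of 10 through the immune class alone. That class also held more UMIs in all (1621882 against 1028576). Not all of the 15 had an interval that excluded 1. The lean is therefore partly set by the minimum, and nothing is read from its size beside that of the 9 genes. Cxcl1, another CXCR2 ligand, shared the stromal side with Cxcl5 (9.72 against 1.85 CPM, ratio 5.26, 1.35 to 29.7), with 9 of its 14 UMIs in chondrocyte-like nuclei. The CXCR2 ligand Cxcl2 was on the other side, 22.4-fold higher in immune-like nuclei (7.46 to 110) with its highest level, 469 CPM, in the neutrophil-like nuclei that also led for Cxcr2. Cxcl3 and Ppbp, also CXCR2 ligands, had 0 UMIs in stromal-like nuclei and 12 and 10 in immune-like nuclei. The retained stromal nuclei carried some of the CXCR2 ligands and myeloid nuclei the others.

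Ligands of CCR2 and CCR1 were mainly myeloid. Ccl2 and Ccl7 stood at 50.6 and 40.7 CPM in immune-like nuclei and both at 18.5 CPM in stromal-like nuclei, with 19 stromal UMIs each, 2.74-fold (1.65 to 4.78) and 2.20-fold (1.31 to 3.89) higher on the immune side. Both had their highest level in the Ccl8- and Mrc1-led macrophages, at 80.2 and 87.1 CPM. Ccl12 had 16 UMIs in immune-like and 0 in stromal-like nuclei, and the exact lower limit was 2.45-fold higher in immune-like nuclei. The CCR1 ligands Ccl6 and Ccl9 were 18.4-fold (6.09 to 90.9) and 16.5-fold (5.44 to 81.7) higher in immune-like nuclei, both highest in the monocyte-like nuclei (123 and 141 CPM) that came second for Ccr1. Pf4, the platelet factor also made by macrophages, was 23.9-fold higher on the immune side (7.97 to 118), Ccl8 10.8-fold (1.69 to 451) and Ccl4 7.61-fold (1.89 to 66.4).

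Of the 22 genes that carry or shape chemokine signals, 17 were at least 2-fold higher in immune-like nuclei, against 21.2% of all genes. Another 1 was higher in stromal-like nuclei, against 24.8%, and 4 were in neither, with a median log2 ratio of -2.31. The list was drawn up with earlier results known and holds leukocyte migration genes, so the count describes the list and is not a test. The stromal gene was Mmp2, a gelatinase that trims CXCL12, at 126 against 3.08 CPM (ratio 41.0, 17.1 to 128). The immune genes with the widest gaps were the leukocyte migration genes Pik3r5 (40.6-fold, 22.5 to 81.7) and Dock2 (31.1-fold, 24.4 to 40.1), followed by Rgs1 (17.0-fold), Rac2 (16.5-fold), Grk3 (15.9-fold), Plcb2 (15.4-fold), Arrb2 (13.8-fold) and Pik3cg (13.1-fold). Adam10, the sheddase of CXCL16, was 2.05-fold higher in immune-like nuclei (1.68 to 2.53), and Adam17 4.06-fold (3.07 to 5.47). Dpp4, which inactivates CXCL12 and was also a naming marker of SSPC-like nuclei, was in neither direction between the classes (ratio 1.23, 0.83 to 1.81), at 345 CPM in SSPC-like nuclei and 599 CPM in the lymphoid and dendritic group.

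The genes whose levels ran most like each member over the 16 populations were taken from 9546 genes with at least 50 UMIs. Cxcl5 was followed by the tendon factor Mkx, Trabd2b and the fibrillin gene Fbn2 (r = 0.98, 0.98 and 0.97), and Cxcl12 by Atp8b1, Pear1 and Samd5 (r = 0.96, 0.96 and 0.93). Cxcr2 ran with Nlrp12, Rab44 and the granule gene Ltf (r = 0.95, 0.95 and 0.94). Ccr2 ran with Arl4c, Ms4a4c and Cysltr1 (r = 0.96, 0.90 and 0.87), and Ccr1 with Fos, the integrin gene Itgam and Clec4e (r = 0.86, 0.85 and 0.84). Cxcl16 ran with Calhm2, its overlapping neighbour Zmynd15 and Clec4a3 (r = 0.90, 0.87 and 0.87), Cxcr4 with the endosomal genes Unc93b1, Mpeg1 and Cybb (r = 0.90, 0.89 and 0.88), Ackr3 with Errfi1, Adgra2 and Serping1 (r = 0.88, 0.86 and 0.83) and Cx3cr1 with Nadk, Mast3 and Rcsd1 (r = 0.89, 0.87 and 0.86). The points share 1 library and the same nuclei, and the correlations are descriptions.

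The filters on the MTI library removed 319 barcodes with 1562070 UMIs, which were not assigned to populations. Cxcl5, Cxcl12 and Ackr3 were at least 2-fold higher in them than in retained nuclei (2.28-fold, 3.31-fold and 2.41-fold), a direction taken by 4.94% of 16226 genes. Cxcl16, Cxcr2 and Cxcr4 were at least 2-fold lower, a direction taken by 12.4%, and Ccr1, Ccr2 and Cx3cr1 were in neither group. The 21 barcodes with over 5000 genes held 597985 of the library's 5899407 UMIs. They held 83 of the library's Cxcl12 UMIs (42.6%), 62 of its Ackr3 UMIs (33.5%) and 21 Cxcl5 UMIs, at 139, 104 and 35.1 CPM. In the same barcodes Ccr2 had 6 UMIs, 0.15 of its level in retained nuclei. In contrast, the 261 barcodes with 5% or more mitochondrial UMIs held 167 Ccr2 UMIs (35.9%), 2.74-fold above retained nuclei (2.25 to 3.32).

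At day 1 post-fracture most of the members' UMIs, like those of the library as a whole, lay outside the retained nuclei. This limits what can be said of their cells. The library held 477 UMIs of Cxcl5, 99 of Cxcl12, 45 of Cxcl16, 112 of Cxcr2, 105 of Cxcr4, 241 of Ackr3, 388 of Ccr1, 701 of Ccr2 and 526 of Cx3cr1. Between 66.7% (Cxcl16) and 81.9% (Cxcr4) of each gene's UMIs were in barcodes with fewer than 200 genes, against 72.9% of all UMIs. These can hold free RNA or nuclei of low depth, which were not told apart. Retained nuclei held 45, 7, 2, 9, 8, 17, 24, 48 and 67 UMIs in the same order. Relative to those barcodes, 0 of 9 genes were at least 2-fold higher in retained nuclei, against 6.73% of 22216 genes, and 2 (Cxcl16 and Ccr1) were at least 2-fold lower, against 8.70%. The median log2 ratio was -0.84 for the 9 genes and 0.14 for all genes. Cxcl5 stood at 37.4 CPM in retained nuclei and 51.3 CPM in barcodes under 200 genes, a ratio of 0.73 (0.523 to 0.998). Ccr2 stood at 39.9 and 78 CPM (ratio 0.51, 0.37 to 0.69), Ccr1 at 20.0 and 45.7 CPM (ratio 0.44, 0.28 to 0.66), Ackr3 at 14.1 and 27.2 CPM (ratio 0.52, 0.30 to 0.86) and Cx3cr1 at 55.7 and 51.8 CPM (ratio 1.08, 0.82 to 1.40). Of the 4 remaining genes, with 2 to 9 UMIs in retained nuclei, every ratio had an interval that included 1.

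Within the retained nuclei, Cxcl5 was raised in 1 cluster. A stromal-like cluster of 53 nuclei with 30740 UMIs, in which 7 stromal markers were raised, held 17 of the 45 Cxcl5 UMIs in 7 nuclei. The level was 553 CPM (322 to 885), 10.8-fold above the barcodes under 200 genes (6.21 to 17.5), and Cxcl5 was its leading gene although it took no part in the clustering. The other 11 clusters held 0 to 5 Cxcl5 UMIs each. Cxcl12 had 1 UMI there, Ccr2 4, Cx3cr1 1 and the remaining 5 genes 0. Against all genes, 16.9% were at least 2-fold higher in that cluster than in the barcodes under 200 genes, and 65.1% lower, since most genes are at 0 in so few UMIs, and nothing is read from the genes that were lower. Under the wider mitochondrial limit of 5%, which kept 5414 nuclei, the larger stromal-like cluster had 372 nuclei and 179581 UMIs. It held 50 Cxcl5 UMIs in 34 nuclei (278 CPM, ratio 5.43, 3.96 to 7.32), 5 of Cxcl12 (ratio 2.65, 0.835 to 6.47) and 10 of Ackr3 (ratio 2.05, 0.97 to 3.86). A smaller cluster of 45 nuclei with 24587 UMIs, led by Cfd and Lrg1, also took the stromal name. Its levels are not given here. In the macrophage-like cluster of 422 nuclei found under that limit, Ccr2 had 25 UMIs at 158 CPM (ratio 2.03, 1.3 to 3.03) and Ccr1 10 UMIs (ratio 1.39, 0.66 to 2.59).

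Cx3cr1 was highest in an unnamed cluster of the day 1 library. Under the 5% limit, a cluster of 316 nuclei led by Atf3, Egr1, Nes and Xirp1 held 33 of its UMIs at 238 CPM, a ratio of 4.58 to the barcodes under 200 genes, and under the stricter limit the corresponding Atf3-led cluster of 203 nuclei held 12 UMIs at 112 CPM. The overlapping gene Xirp1 had 42 and 22 UMIs in the same clusters, 302 and 205 CPM, and was at its highest there. Macrophage-like nuclei of the 5% limit had 5 Cx3cr1 UMIs (31.7 CPM). The part of the overlap in these counts was not tested.

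**Figure D4:**
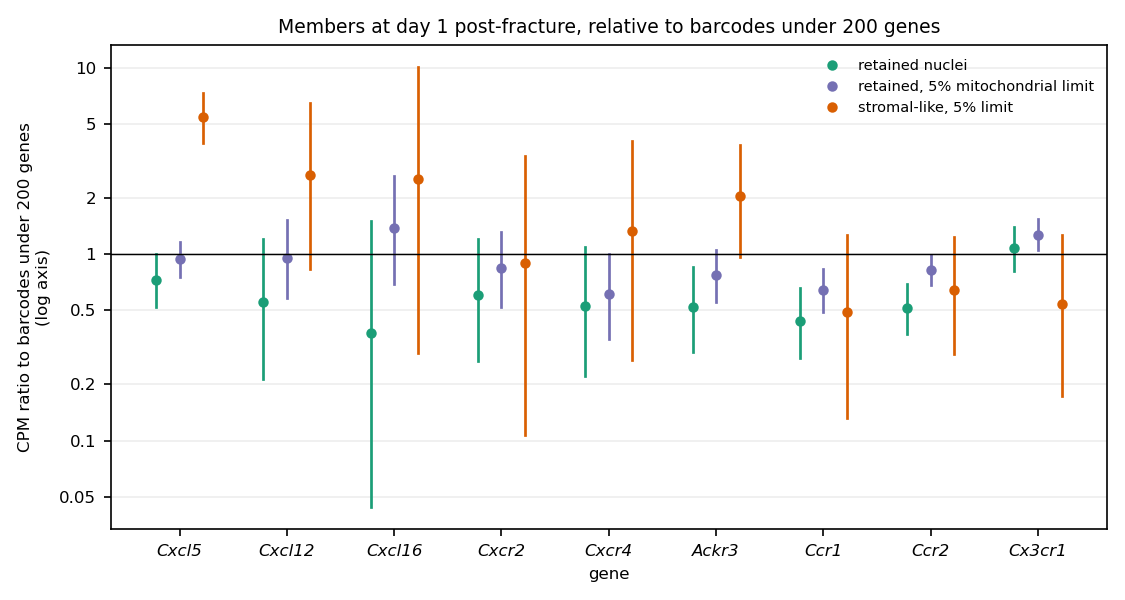
Ratio of CPM to that in barcodes with fewer than 200 genes (log axis) for the 9 genes at day 1 post-fracture, in all retained nuclei (green), in nuclei retained with a mitochondrial limit of 5% (purple) and in the larger stromal-like cluster under that limit (orange), with exact 95% counting intervals. In retained nuclei the ratios run from 0.38 to 1.08, while Cxcl5 in the larger stromal-like cluster reaches 5.43.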

How the data were processed

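Per the labels and the file headers, the authors made the deposited count matrices (UMI counts per gene and barcode) with Cell Ranger 7.0.1 and mm10. A label names a human reference while all 32285 gene IDs are mouse. Whether counting used strand is not given in the sources used here. The 9 genes and all lists were chosen with earlier results of these data known. Coordinates come from GENCODE on mm10, whose release may differ from the one counted with, and 32158 IDs matched.

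Nuclei with 200 to 5000 genes were retained, in the MTI library with under 5% mitochondrial and 2% ribosomal UMIs and at day 1 with under 0.5% and 2.5%. Seurat 5.3.0 (R 4.3.3) clustered them on 2000 variable genes without the chemokine family (MTI 30 components and resolution 1, immune nuclei 20 and 1.5, stromal nuclei 15 and 0.5, day 1 20 and 1.7). A cluster took a name from at least 3 markers with a fold of 1.5. The name may differ from the study's. Scrublet (scanpy 1.11.5) marked 3 of 1127 MTI nuclei (0.266%) as doublets, and they were kept.

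UMIs were summed per population. CPM levels carry exact Poisson intervals, shares exact Clopper-Pearson intervals and ratios exact conditional binomial intervals, all at 95% (scipy 1.17.1). A ratio was called at a fold of 2 with at least 10 UMIs in both groups together. In the counts and shares of genes past the fold, a gene with 0 UMIs in 1 group was called without a floor. For printed ratios and for counts under alternatives, 0 UMIs were set to a floor of 3. A bound given for 0 UMIs is the value at that floor and not an exact limit. Shares were also taken after thinning MTI nuclei to 500 UMIs, and none was left out as shallower. Likeness is Pearson's r of log2(CPM + 10). All 9 genes are named. Other family and signalling genes are named where the fold was at least 2 and the interval excluded 1, at most 8 per direction, or where they are known partners of the 9. A family gene that met this rule is counted but not reported here. On simulated counts for 12573 genes of the stromal and immune comparison, 98.0% of genes with a fold of 4 and 92.0% with a fold of 0.25 were past a fold of 2, as were 6.55% of unchanged genes. The simulated UMIs were independent, so these shares leave out the spread from UMIs of a gene that lie together in 1 nucleus. Alternatives changed the filters, clustering, naming, doublet handling and averaging.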

Additional observations from a re-analysis of the deposited data

Results flagged for a closer look

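A signal of 8 of the 9 genes was flagged in the 319 MTI barcodes that the filters removed and no comparison of populations used. Each was above the limit that a count of 0 allows there. Cxcr2 was not flagged but was also above that limit, with 7 UMIs at 4.48 CPM (1.80 to 9.23). The limit alone therefore does not set the flagged genes apart from Cxcr2. The share of all genes above it is not given here, so nothing particular to these genes is read from the flags. Cxcl12 stood at 67.9 CPM (55.6 to 82.1), Ackr3 at 55.1 CPM (44.0 to 68.0) and Cxcl5 at 23.7 CPM (16.7 to 32.6), all higher than in retained nuclei. Ccr2 stood at 111 CPM, 1.66-fold the retained level, and Ccr1 at 37.8 CPM, 1.01-fold. Cx3cr1 (17.9 CPM), Cxcl16 (13.4 CPM) and Cxcr4 (12.2 CPM) were below their retained levels. The removed barcodes held 1562070 of the library's 5899407 UMIs. Of single genes they held 54.4% of all Cxcl12 UMIs of the library, 46.5% of Ackr3 and 45.1% of Cxcl5.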

How the results depend on the processing

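With 1 library per condition no replicate could be left out. No paired analysis was possible because each group has a single library. Of 236 values under alternatives, 209 moved by less than their interval or by under 1.5 times for counts, 25 moved by more and 2 reversed. The counts of 3 genes higher in stromal-like and 6 in immune-like MTI nuclei were the same under all alternatives run. These had 126 to 178 stromal-like and 372 to 494 immune-like nuclei. At a resolution of 2.0 the stromal class had 126 nuclei, and a separate cluster of 67 nuclei took the pericyte and smooth muscle name. The neutrophil-like values here are over the 85 nuclei of the first clustering (Cxcr2 412 CPM, Ccr1 341 CPM), not the 87 of the immune clustering. With nuclei assigned by their own marker counts, the Cxcl5 bound was 16.4, Cxcl12 in endothelial-like nuclei 65.3 CPM and Ccr2 in immune-like nuclei 181 CPM. With a mitochondrial limit of 0.5%, stromal Cxcl5 was 21.0 CPM, endothelial Cxcl12 55.7, neutrophil-like Cxcr2 242 and Ccr1 201, and immune Ccr2 127. With a minimum of 500 genes, neutrophil-like Ccr1 was 194 CPM. As a mean CPM of single nuclei, stromal Cxcl5 was 56.6, endothelial Cxcl12 64.9, immune Ccr1 116 and osteoclast-like Ccr1 68.0. Leaving out the nucleus with the most UMIs of a gene, chosen after seeing the data, gave a Cxcl5 bound of 14.4 and 26.6 CPM, endothelial Cxcl12 at 46.3 CPM and osteoclast-like Ccr1 at 63.1 CPM. At day 1, Cxcl16, with 2 UMIs in retained nuclei, reversed to a ratio of 1.38 with a mitochondrial limit of 5% (5414 nuclei). With a minimum of 500 genes (190 nuclei) Cxcl16 had 0 UMIs. Its value of 2.78 there, counted among the 2 that reversed, is an upper bound set by the floor of 3 and not a measured ratio. Under these settings, in the same order, Ccr2 was 0.824 and 0.26 and, under the minimum of 500 genes, Cxcl5 1.19. The count of genes at least 2-fold lower in retained nuclei was 0 with the 5% limit, 6 with the minimum of 500 genes, 1 without myogenic clusters and 1 as a mean of single barcodes. The count higher was 1 with the minimum of 500 genes. That gene was Cxcl16, counted through its bound from 0 UMIs, so no gene was measured as higher there. The cause was not tested.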
